A study of Saccharomyces cerevisiae and Saccharomyces cerevisiae x Saccharomyces paradoxus with 20 samples.

Results

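Ribosome biogenesis factors are the proteins that process, fold and export the precursors of the ribosomal subunits without becoming part of the ribosome. In budding yeast their genes are known as one of the most tightly co-regulated groups of the genome, transcribed strongly in rapidly growing cells and repressed together when nutrients fall or stress begins. The small subunit processome, built around the U3 box C/D snoRNP and the UTP-A, UTP-B and Mpp10 subcomplexes, works on the precursor of the 40S subunit, and a separate set of nucleolar proteins, DEAD-box RNA helicases and GTPases works on the precursor of the 60S subunit. The genes were described across the parents and the hybrid of an interspecies cross, where the 2 alleles of a gene share the same nucleus. The comparison of alleles with parents is used to separate cis from trans differences.

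A fixed list of 52 genes was looked up by systematic name, and 42 of them were among the 4995 genes of the RNA tables for the UWOPS05_217_3 cross. The 42 genes comprised 2 of the box C/D snoRNP core, 5 of UTP-A, 6 of UTP-B, 14 of the U3 snoRNP, Mpp10 complex and other small subunit factors, 8 nucleolar 60S factors including the PeBoW complex, 3 DEAD-box helicases of 60S assembly, and 4 GTPases and late or export factors of the 60S subunit. The other 10 listed genes, NOP1, NOP7, NOG1, NOG2, SSF1, DBP3, IMP4, UTP10, UTP15 and UTP22, were not analysed here. Of the 3498 nucleosome-free regions (NFRs, the accessible stretches upstream of genes), 34 overlapped the 300 bp upstream of the start of 33 of the 42 genes, 1 of which, UTP13, had 2 NFRs. The 34 NFRs had a median width of 324 bp (70 to 662 bp), wider than the median of 234 bp over all 3498 NFRs. Of the 34, 13 also lay within 300 bp upstream of another gene of the tables, so that their accessibility cannot be assigned to either gene.

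Haploid cells of S. cerevisiae strains UWOPS05_217_3 and DBVPG1373 and of S. paradoxus strain CBS432, and the diploid hybrid of each S. cerevisiae strain with CBS432, were grown in YEPD, a rich glucose medium, to mid-log phase. Open chromatin was measured in all 5 by FAIRE-seq, and RNA was taken here from UWOPS05_217_3, CBS432 and their hybrid, with 2 biological replicates for each. Each species was represented by 1 strain in the RNA comparison, and the hybrids differed from the parents in ploidy as well as in carrying both genomes, so these cannot be told apart. Column totals of RNA counts were 51389633 to 106845771 in haploids and 36188856 to 54971715 per hybrid allele, and those of FAIRE counts were 2561228 to 4198250 and 1339393 to 2036883. As a check of the labels, the RNA of 6 haploid-specific genes was summed. It was 1480 to 1676 CPM (counts scaled to a library total of 1000000) in the haploids and 110 to 157 in the hybrid alleles. All 6 were lower in the hybrid for either allele by edgeR's quasi-likelihood test.

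RNA of the biogenesis factors was lower in UWOPS05_217_3 than in CBS432 almost throughout the list. Levels are given in CPM, scaled for a hybrid allele so that the mean total of the library's pair of alleles stands for the total of a haploid library. Summed over the 42 genes, the RNA made up 2.79% and 2.53% of the counts in the 2 UWOPS05_217_3 haploid libraries and 3.48% and 3.65% in those of CBS432. In the hybrid, the UWOPS05_217_3 alleles made up 3.52% and 3.28% and the CBS432 alleles 3.78% and 3.51%. The UWOPS05_217_3 haploids therefore lay below the other 6 columns, which overlapped each other. Counts are shares of a library, so a lower share and less RNA per cell cannot be told apart.

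**Figure D1:**
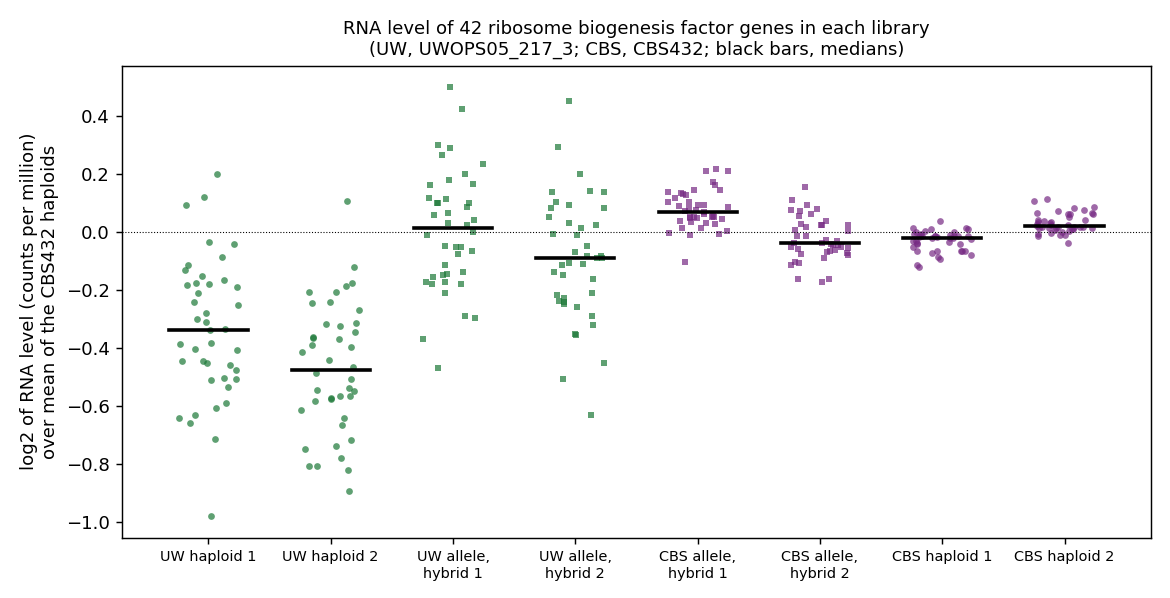
RNA level of each of the 42 genes (points) in the 8 library columns of the UWOPS05_217_3 cross, on the y axis as log2 of CPM over the mean of the 2 CBS432 haploid libraries, with circles for haploids, squares for hybrid alleles and black bars for medians. Most points of the 2 UWOPS05_217_3 haploid libraries lie below 0, whereas the alleles in the hybrid and the CBS432 haploids lie around 0.

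Between the haploids, 29 of the 42 genes were called lower in UWOPS05_217_3 and 0 were called higher (edgeR quasi-likelihood test over all genes, adjusted p under 0.05). Over all 4995 genes, 26.4% were called lower and 28.2% higher. The log2 difference was negative for 41 of the 42 genes, with a median of -0.42, or 0.749-fold, against a median of 0.01 over all genes. For 38 of the 42 genes, both UWOPS05_217_3 libraries were below both CBS432 libraries, which held for 37.5% of all genes. DESeq2 called 35 of the 42 genes, and leaving out single libraries gave between 20 and 33 calls.

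The difference was found in each role group. Called lower were 1 of 2 box C/D genes, 4 of 5 UTP-A genes, 5 of 6 UTP-B genes, 9 of 14 U3, Mpp10 and other small subunit genes, 5 of 8 nucleolar 60S genes, 2 of 3 DEAD-box helicase genes and 3 of 4 genes for GTPases and late 60S factors. Group medians ran from -0.32 for box C/D to -0.50 for UTP-B on the log2 scale, a narrower span than that among the genes within the groups.

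The widest difference was at NSR1 (YGR159C), the yeast nucleolin, a nucleolar RNA-binding protein of 40S assembly. NSR1 RNA was 1578 and 1677 CPM in the UWOPS05_217_3 haploids and 2859 and 3362 in the CBS432 haploids, a log2 difference of -0.95 ± 0.13 (SE, 2 libraries per strain, edgeR adjusted p = 0.000647). The groups did not overlap.
MAK16 (YAL025C), a nucleolar factor needed for 60S subunits, was at 335 and 319 CPM against 533 and 563, a log2 difference of -0.76 ± 0.09 (edgeR adjusted p = 0.000323). BMS1 (YPL217C), the GTPase of the small subunit processome, was at 744 and 672 against 1166 and 1184, a log2 difference of -0.75 ± 0.10 (edgeR adjusted p = 0.000611). In both genes each UWOPS05_217_3 library was below each CBS432 library.

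Of the box C/D core proteins, NOP58 (YOR310C) was at 1109 and 1103 CPM in UWOPS05_217_3 and 1530 and 1558 in CBS432, and was called lower (log2 -0.50 ± 0.10, edgeR adjusted p = 0.00452). Its partner NOP56 (YLR197W) was at 1368 and 1216 against 1320 and 1484, groups that overlapped (log2 -0.14 ± 0.12, edgeR adjusted p = 0.362). The 2 proteins form the scaffold of the same snoRNP. TIF6 (YPR016C), which keeps the 60S subunit from joining the 40S subunit early, was at 338 and 360 against 439 and 488 (log2 -0.43 ± 0.10, edgeR adjusted p = 0.00835). NMD3 (YHR170W), the export adapter of the 60S subunit, was the 1 gene with a positive difference, at 651 and 610 against 554 and 580 (log2 0.14 ± 0.10, edgeR adjusted p = 0.259). Its libraries did not overlap between the strains, yet the difference was not called.

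The alleles were next compared within the hybrid, where both share the same nucleus and a difference between them is called a cis effect. An imbalance in how reads of the alleles map would appear in the same comparison, and its part was not tested. The imbalance went in both directions. Of the 42 genes, 9 were called toward the UWOPS05_217_3 allele and 18 toward the CBS432 allele (edgeR, hybrid library as block), beside 31.8% and 36.7% of all 4993 genes tested. The median log2 ratio of the alleles was -0.06 for the 42 genes and -0.03 for all genes. Values ran from -0.48 to 0.37. Without the library as block, 4 genes were called toward the UWOPS05_217_3 allele and 15 toward the CBS432 allele. DESeq2 and TMM scaling each gave 11 and 16, and a filter at a mean count of 100 gave 9 and 18.

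NMD3 had the highest ratio, with 800 and 775 CPM for the UWOPS05_217_3 allele and 633 and 582 for the CBS432 allele (log2 0.37 ± 0.03, edgeR adjusted p = 5.89e-21). UTP7 (YER082C), a WD-repeat protein of the small subunit processome, followed with 573 and 524 against 471 and 433 (log2 0.28 ± 0.04, edgeR adjusted p = 2.17e-11). UTP9 (YHR196W), a UTP-A subunit, had 720 and 688 against 594 and 571 (log2 0.27 ± 0.03, edgeR adjusted p = 1.19e-12). For these 3 genes the haploid strains were not called different.
BMS1 had the lowest ratio, with 957 and 919 for the UWOPS05_217_3 allele against 1359 and 1267 for the CBS432 allele (log2 -0.48 ± 0.03, edgeR adjusted p = 1.24e-36). UTP6 (YDR449C), a UTP-B subunit, had 378 and 316 against 505 and 458 (log2 -0.48 ± 0.04, edgeR adjusted p = 1.51e-21), and NSR1 had 2249 and 2191 against 3104 and 2975 (log2 -0.45 ± 0.02, edgeR adjusted p = 1.46e-45). In all 6 genes the 2 libraries gave alleles that did not overlap.
The box C/D partners went in opposite directions, NOP58 with 1371 and 1328 against 1638 and 1570 (log2 -0.25 ± 0.03, edgeR adjusted p = 4.51e-17) and NOP56 with 1571 and 1484 against 1490 and 1365 (log2 0.10 ± 0.03, edgeR adjusted p = 0.000336). TIF6 alleles were at 428 and 435 against 467 and 447, a difference that was not called (log2 -0.08 ± 0.04, edgeR adjusted p = 0.0587).

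The haploid comparison, which used other libraries, was also read by the direction of the allele imbalance. All 18 genes called toward the CBS432 allele in the hybrid were also called lower in the UWOPS05_217_3 haploids, with haploid log2 differences from -0.95 to -0.32 and a median of -0.60. Among all 1833 genes called toward the CBS432 allele, 57.3% were called lower in the haploids and the median was -0.37. Of the 15 genes with no cis call, 11 were called lower, with a median of -0.35, against 14.4% and 0.04 for all 1570 such genes. Of the 9 genes called toward the UWOPS05_217_3 allele, NMD3, UTP7, UTP9, YTM1, DBP9, RRP12, UTP13, NOP4 and NOP56, 0 were called between the haploids, although RRP12 (edgeR adjusted p = 0.0501) and NOP4 (edgeR adjusted p = 0.0509) lay at the threshold and DESeq2 and the replicate block each called 3 of the 9 lower. Their haploid differences ran from -0.29 to 0.14 with a median of -0.18, whereas among all 1590 genes called toward that allele 63.2% were called higher and the median was 0.43. The order of the 3 classes was thus that of all genes, and each median of the 42 genes lay below that of all genes of its class. These shares were not tested against each other.

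Subunits of the same complex differed in cis. In UTP-B, whose 6 subunits were all measured, the allele log2 ratio was -0.48 for UTP6, -0.28 for PWP2, -0.26 for DIP2, -0.08 for UTP21, -0.02 for UTP18 and 0.11 for UTP13, with standard errors of 0.03 to 0.04, and all of these but UTP18 were called. In UTP-A it was -0.34 for NAN1, -0.24 for UTP5, -0.07 for UTP8, -0.06 for UTP4 and 0.27 for UTP9, of which UTP4 was not called. The PeBoW subunits ERB1 and YTM1, which bind each other, had -0.05 and 0.23, and of these YTM1 was called. Their trans differences were closer together, from -0.44 to -0.22 within UTP-B, from -0.37 to -0.23 within UTP-A, and -0.29 and -0.39 for ERB1 and YTM1.

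**Figure D2:**
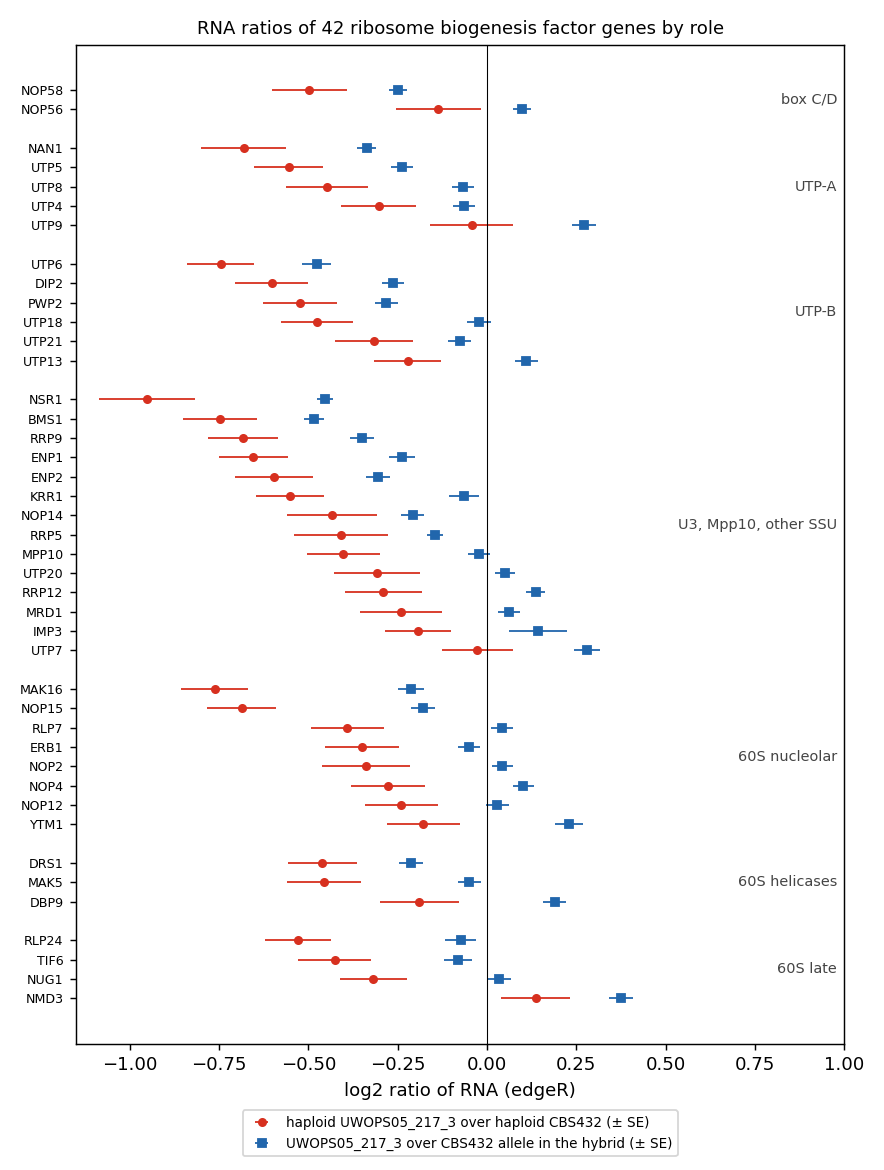
log2 ratio of UWOPS05_217_3 over CBS432 RNA (x axis, ± SE) for the 42 genes, ordered within role groups, between the haploids (red circles) and between the alleles of the hybrid (blue squares). The haploid ratio lies left of the allele ratio for every gene, and the allele ratios spread from -0.48 to 0.37 on either side of 0.

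A trans effect was tested as the difference between the haploid ratio and the allele ratio, on the log2 scale. Ploidy also differed between the parents and the hybrid, and its part in this difference was not tested. All 42 genes had a negative difference, that is, UWOPS05_217_3 was relatively lower in the haploids than in the hybrid, and 25 were called (edgeR interaction test, adjusted p under 0.05) beside 10.6% of all 4995 genes called in that direction. The median difference was -0.32, or 0.800-fold, with a range from -0.53 to -0.22, against 0.07 over all genes. At an unadjusted p under 0.05 there were 38 genes. All 42 stayed negative under each of 10 alternatives, and the median stayed between -0.43 and -0.25, but the number of calls depended on them. DESeq2 called 40 and TMM scaling 38, omitting the pairing of replicates left 8, leaving out either hybrid library left 1, and leaving out replicate 1 of either parent gave 42.

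MAK16 had the largest trans difference. Its log2 ratio of UWOPS05_217_3 over CBS432 was -0.67 and -0.82 in the 2 pairs of haploid libraries and -0.16 and -0.26 in the 2 hybrid libraries, a difference of -0.53 ± 0.09 (SE, edgeR adjusted p = 0.0033). NOP15 (YNL110C), an RNA-binding protein of 60S assembly, had ratios of -0.60 and -0.74 in the haploids and -0.22 and -0.14 in the hybrid (-0.49 ± 0.09, edgeR adjusted p = 0.00459). NSR1, whose levels are given above, had ratios of -0.46 and -0.44 in the hybrid and lower ratios in both haploid pairs (-0.48 ± 0.08, edgeR adjusted p = 0.00429).
In these 3 genes the haploid and hybrid ratios did not overlap. All 3 were also called in cis, each toward the CBS432 allele. TIF6 was called in trans (-0.33 ± 0.08, edgeR adjusted p = 0.0187) and not in cis. NOP58 (-0.23 ± 0.08, edgeR adjusted p = 0.0526), NMD3 (-0.22 ± 0.09, edgeR adjusted p = 0.0905) and NOP56 (-0.22 ± 0.11, edgeR adjusted p = 0.177) had the same sign without being called. Among the groups, 7 of the 8 nucleolar 60S genes were called and 0 of the 2 box C/D genes, with group medians of -0.38 and -0.22. The difference between groups was not tested.

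**Figure D3:**
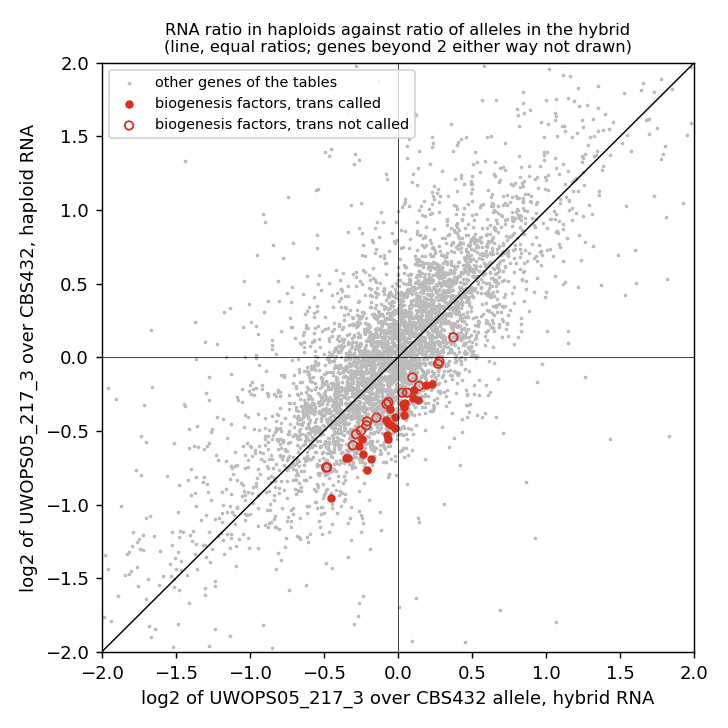
log2 RNA ratio of UWOPS05_217_3 over CBS432 in the haploids (y axis) against the ratio of their alleles in the hybrid (x axis) for all genes (grey) and the 42 biogenesis factors (red, filled where the trans difference was called, which was the case for 25). All 42 red points lie below the line of equal ratios, in a band along it.

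The 2 species' alleles were then followed separately from the haploid parent into the hybrid. The UWOPS05_217_3 allele of every one of the 42 genes had more RNA in the hybrid, and 39 were called higher (edgeR) beside 11.4% of all 4993 genes called in that direction. The median log2 difference was 0.44, or 1.36-fold, against -0.01 over all genes, and ran from 0.32 to 0.71. In all 42 genes both hybrid libraries were above both haploid libraries, which held for 21.6% of all genes. The number of calls fell to 5 without hybrid library 1 and 18 without hybrid library 2, with medians of 0.40 and 0.49, while DESeq2 called 42.
For the CBS432 allele, 0 of the 42 genes were called in either direction (edgeR, and 0 at an unadjusted p under 0.05), beside 7.31% of all 4994 genes. DESeq2 also called 0, with 2 at an unadjusted p under 0.05. The median log2 difference was 0.04 and the range -0.12 to 0.17, with standard errors of 0.07 to 0.12. The difference was positive for 31 genes and negative for 11, and across the alternatives between 18 and 37 were positive. Over all genes 50.22% were negative.

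MAK16 rose from 335 and 319 CPM in the UWOPS05_217_3 haploids to 498 and 509 for the same allele in the hybrid (log2 0.71 ± 0.08, edgeR adjusted p = 0.00103), and its CBS432 allele was at 533 and 563 in the haploids and 558 and 609 in the hybrid (log2 0.10 ± 0.08, edgeR adjusted p = 0.537). ENP1 (YBR247C), a component of 40S precursors, rose from 368 and 365 to 514 and 492 (log2 0.55 ± 0.08, edgeR adjusted p = 0.00362), and its CBS432 allele was at 544 and 595 in the haploids and 608 and 578 in the hybrid. NSR1 rose from 1578 and 1677 to 2249 and 2191 (log2 0.54 ± 0.10, edgeR adjusted p = 0.00837), against 2859 and 3362 and then 3104 and 2975 for CBS432.
For each of these genes the UWOPS05_217_3 groups were separate, and only for the CBS432 alleles did hybrid and haploid libraries overlap.
Of the 4 genes given whatever their values, NOP58 and NMD3 had both CBS432 hybrid libraries above both CBS432 haploid libraries, without being called. The UWOPS05_217_3 alleles of all 4 were called higher in the hybrid. NOP56 rose from 1368 and 1216 to 1571 and 1484 (log2 0.33 ± 0.10, edgeR adjusted p = 0.0479), NOP58 from 1109 and 1103 to 1371 and 1328 (0.38 ± 0.09, edgeR adjusted p = 0.0225), TIF6 from 338 and 360 to 428 and 435 (0.40 ± 0.09, edgeR adjusted p = 0.0147) and NMD3 from 651 and 610 to 800 and 775 (0.41 ± 0.09, edgeR adjusted p = 0.0129). The haploid comparison, the trans test and the comparison of the UWOPS05_217_3 allele share the 2 UWOPS05_217_3 haploid libraries, so their values are not independent of each other.

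Other genes of ribosome production were counted from lists drawn up with earlier results of these data known. Of 65 further ribosome assembly factors in the tables, 54 were called lower in the UWOPS05_217_3 haploids and 0 higher, with a median log2 of -0.48. In the hybrid, 13 of the 65 were called toward the UWOPS05_217_3 allele and 28 toward the CBS432 allele, with a median of -0.06, and the trans difference was called negative for 46 and positive for 0. UTP23, a small subunit processome factor, had the lowest haploid value of these (log2 -0.92 ± 0.10, edgeR adjusted p = 0.000162).
Of 11 genes for RNA polymerase I, which transcribes the ribosomal RNA, and its initiation factors, 8 were called lower in the UWOPS05_217_3 haploids and 1, RRN5, higher (log2 0.53 ± 0.13, edgeR adjusted p = 0.0103). Of 10 genes for the exosome, the nuclease complex that trims ribosomal RNA, and its cofactors, 7 were called lower. Neither of the 2 genes of the box H/ACA core and SNU13 list was called, with a median of -0.21. In trans, 8 of the RNA polymerase I genes, 4 of the exosome genes and 0 of the 2 in the last list were called negative, and none of these was called positive.

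**Figure D4:**
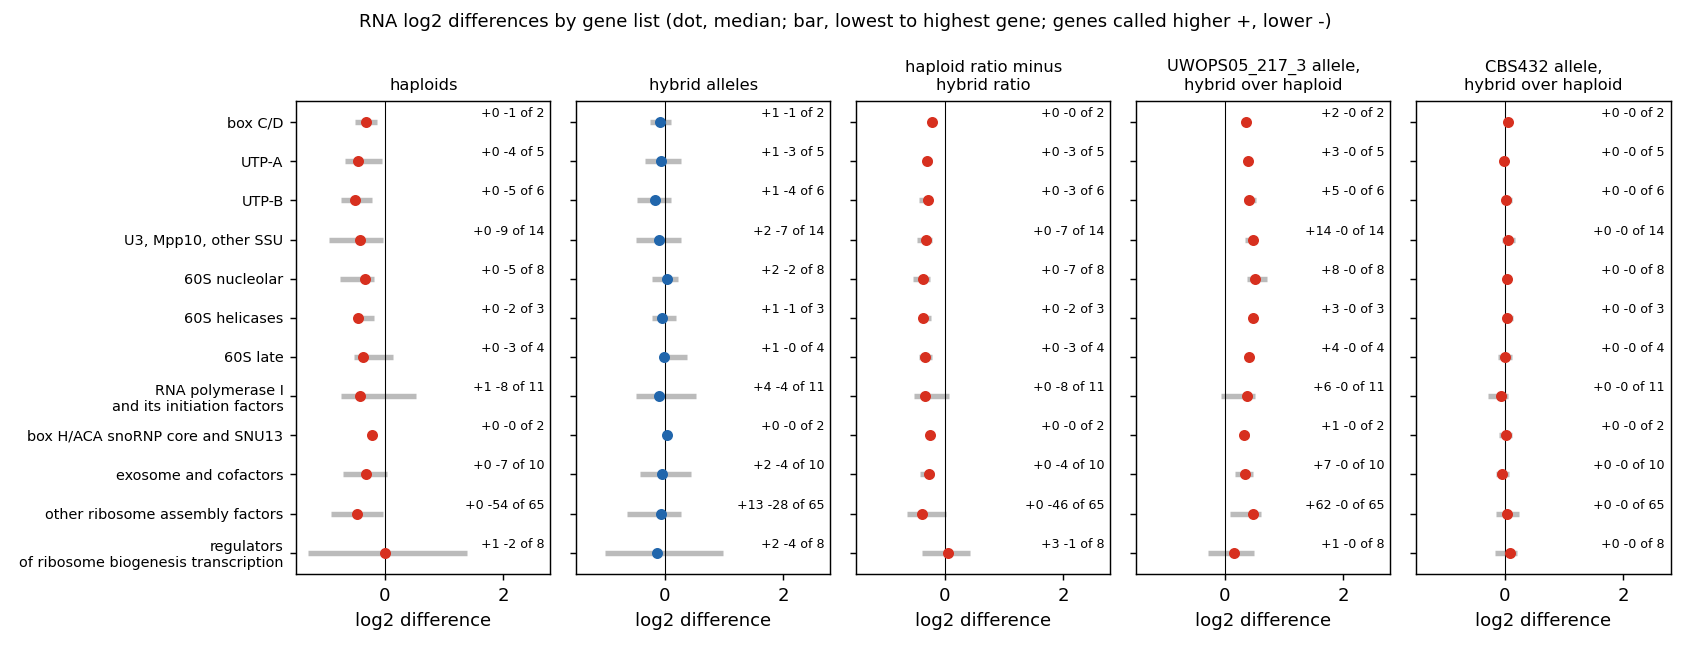
Median (dot) and range (grey bar) of the RNA log2 difference in each role group of the 42 genes and in the related lists (rows), for 5 comparisons (panels), with the numbers of genes called higher and lower. Apart from the regulators, the medians of all lists lie below 0 in the haploid and trans panels and above 0 for the UWOPS05_217_3 allele, and those of the hybrid alleles lie between -0.17 and 0.04.

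The 8 listed regulators of this gene group went in both directions. Between the haploids, 1 was called higher in UWOPS05_217_3 and 2 lower, with a median of 0.00. DOT6, a repressor of ribosome biogenesis genes, was at 253 and 316 CPM in UWOPS05_217_3 and 94.8 and 119 in CBS432 (log2 1.39 ± 0.15, edgeR adjusted p = 0.000174), and its alleles in the hybrid differed by 0.99 ± 0.06 (edgeR adjusted p = 9.2e-33). SCH9, the kinase that inactivates such repressors in growing cells, was at 215 and 174 against 476 and 469 (log2 -1.29 ± 0.11, edgeR adjusted p = 6.39e-05), with an allele difference of -1.01 ± 0.04 (edgeR adjusted p = 6.49e-50).
TOD6, the paralog of DOT6 and also a repressor, was lower in UWOPS05_217_3, at 389 and 383 against 619 and 643 (log2 -0.73 ± 0.09, edgeR adjusted p = 0.000408). The activator SFP1 was at 214 and 196 against 214 and 206, groups that overlapped (log2 -0.05, edgeR adjusted p = 0.644). Whether these regulators had a part in the levels of the 42 genes was not tested.

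Genes induced by stress moved with the UWOPS05_217_3 haploids in the opposite sense. The summed RNA of 11 such genes was 1448 and 1374 CPM in the UWOPS05_217_3 haploids, 577 and 560 in the CBS432 haploids, 368 and 488 for the UWOPS05_217_3 alleles and 508 and 642 for the CBS432 alleles in the hybrid. Between the haploids 9 of the 11 were called higher in UWOPS05_217_3 and 2, HSP26 and SSA4, lower. For the UWOPS05_217_3 allele 10 of the 11 were called lower in the hybrid (edgeR), beside 11.3% of all genes. For the CBS432 allele 2, HSP26 and DDR2, were called lower in the hybrid, beside 4.99% of all genes. DDR2 was at only 0.22 to 0.66 CPM in the hybrid alleles. The genes did not all move together. TSL1, of trehalose synthesis, was at 188 and 206 CPM in UWOPS05_217_3 against 38.8 and 37.5 in CBS432, and HSP12, of the heat-shock genes, at 29.7 and 20.4 against 4.22 and 6.77. The heat-shock genes SSA4, at 53.3 and 49.6 against 125 and 147, and HSP26, at 4.22 and 6.22 against 9.94 and 15.2, went the other way. A further 5 listed genes, HSP104 and HSP42 among them, were not analysed here. The part of what these genes respond to in the result for the 42 genes was not tested.

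Accessibility of the 34 NFRs differed between the haploids in both directions, as it did over all NFRs, whereas every haploid RNA call was lower in UWOPS05_217_3. Between UWOPS05_217_3 and CBS432 haploids, 4 NFRs were called higher in UWOPS05_217_3 and 6 lower (edgeR over all 3498 NFRs). These were 11.8% and 17.6% of the 34, beside 10.8% and 9.58% of all NFRs. The median log2 difference was 0.00 for the 34 NFRs and for all NFRs. Between DBVPG1373 and CBS432, 1 NFR was called higher and 2 lower, beside 4.26% and 3.97% of all NFRs. The 2 comparisons share the CBS432 libraries. Between the 2 S. cerevisiae strains 0 of the 34 NFRs were called by edgeR or by DESeq2, 0 and 1 had an unadjusted p under 0.05, and 0.114% of all NFRs were called. With 2 libraries per strain these counts were unstable, and so were those over all NFRs. With replicate numbers as block, the calls over all 3498 NFRs rose from 712 to 1010 for UWOPS05_217_3 and from 288 to 736 for DBVPG1373. Leaving out single libraries moved the calls over all NFRs in the same directions as those given next. For UWOPS05_217_3 there were 15 calls with replicate numbers as block in place of 10, and between 1 and 5 without any 1 library, the lowest being without CBS432 library 2. For DBVPG1373 the 3 calls became 8 without DBVPG1373 library 1 and 1 without either CBS432 library.

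The most strongly reduced NFR in UWOPS05_217_3 was that of NOP56 (chrXII:545617-545926 in the tables' coordinates, 309 bp), which held 1760 and 2281 counts in UWOPS05_217_3, 1482 and 1389 in DBVPG1373 and 5416 and 3886 in CBS432, counted at the sites used for UWOPS05_217_3. The log2 difference from CBS432 was -1.57 ± 0.38 for UWOPS05_217_3 (edgeR adjusted p = 0.00599) and -1.67 ± 0.45 for DBVPG1373 (edgeR adjusted p = 0.0337). Counts are not scaled for library totals, but the CBS432 libraries lay above all 4 S. cerevisiae libraries. NOP56 RNA, as given above, was not called different between the haploids.
The NFR of RRP5 (chrXIII:731149-731236, 87 bp), a factor of both subunits, held 173 and 305 counts in UWOPS05_217_3, 131 and 55 in DBVPG1373 and 465 and 455 in CBS432 (log2 -1.35 ± 0.38 and -2.46 ± 0.48, edgeR adjusted p = 0.0132 and 0.00755). That of MAK5, a DEAD-box helicase of 60S assembly, held 266 and 567 counts in UWOPS05_217_3 and 641 and 669 in CBS432 (log2 -1.08 ± 0.35, edgeR adjusted p = 0.0279), and is shared with the upstream region of another gene.
Higher in UWOPS05_217_3 was the NFR of ENP2 (chrVII:781391-781817), a small subunit processome protein, with 2140 and 4237 counts against 1270 and 839 (log2 1.19 ± 0.33, edgeR adjusted p = 0.0128). The NFR of NMD3 had 1813 and 2471 against 773 and 747 (log2 1.11 ± 0.29, edgeR adjusted p = 0.0095), and that of DIP2, a UTP-B subunit, had 628 and 1052 against 310 and 316 (log2 1.02 ± 0.34, edgeR adjusted p = 0.0342). In DBVPG1373 the only NFR called higher was that of NSR1, with 613 and 1041 counts against 378 and 262 (log2 1.45 ± 0.42, edgeR adjusted p = 0.0468), while UWOPS05_217_3 had 366 and 897 counts there. Without DBVPG1373 library 2 the NSR1 value dropped to 0.67, and the call was lost then, without either CBS432 library and under total-count scaling.

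In the hybrids, the counts of both alleles come from the same library and were compared at an equal library size. Over all NFRs the median log2 ratio was then 0.085 in the UWOPS05_217_3 hybrid and 0.092 in the DBVPG1373 hybrid, toward the S. cerevisiae allele. In the UWOPS05_217_3 hybrid, 7 NFRs were called toward the S. cerevisiae allele and 8 toward the CBS432 allele (edgeR), beside 15.1% and 9.69% of all NFRs. In the DBVPG1373 hybrid, 10 and 6 were called, beside 17.5% and 12.3%. The hybrids were separate libraries, and 11 NFRs were called in both, all 11 in the same direction, which is 11 of 15 and 11 of 16 of the calls. Over all NFRs 580 were called in both, 67% and 55.6% of the calls in the hybrids, and 99.1% of these had the same direction. Both hybrids carry the CBS432 genome. The 11 NFRs were those of ERB1, RRP9, NMD3, PWP2 and ENP2 toward S. cerevisiae and of MRD1, NOP56, UTP6, NAN1, UTP5 and RRP5 toward CBS432. Each of the 11 also had the same sign in both haploid comparisons, a share that was not counted over all NFRs. The PWP2 NFR rests on few counts, with 29 and 9 for the CBS432 allele in the UWOPS05_217_3 hybrid and 50 and 30 in the DBVPG1373 hybrid. The NFRs of MRD1, NAN1 and UTP5 are shared with another gene.

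For NOP56, the UWOPS05_217_3 allele had 901 and 727 counts and the CBS432 allele 2315 and 1472 in the same libraries (log2 -1.19 ± 0.21, edgeR adjusted p = 1.34e-06), and the DBVPG1373 allele had 1176 and 1071 against 2687 and 2120 (log2 -1.09 ± 0.15, edgeR adjusted p = 0.000645). RRP5 had 91 and 76 against 323 and 209, and 127 and 99 against 300 and 350 (log2 -1.64 ± 0.43 and -1.53 ± 0.35, edgeR adjusted p = 0.00145 and 0.00855). In both genes each S. cerevisiae allele was below each CBS432 allele.
UTP5, a UTP-A subunit, had in the UWOPS05_217_3 hybrid 359 and 268 against 806 and 688 counts (log2 -1.26 ± 0.29, edgeR adjusted p = 0.000163), and MRD1, an RNA-binding processome factor, had 285 and 205 against 557 and 633 in the DBVPG1373 hybrid (log2 -1.29 ± 0.27, edgeR adjusted p = 0.00582).
Toward S. cerevisiae, RRP9, the U3 snoRNP protein, had 1255 and 997 counts against 676 and 376 in the UWOPS05_217_3 hybrid and 1783 and 1648 against 986 and 624 in the DBVPG1373 hybrid (log2 1.15 ± 0.25 and 1.13 ± 0.19, edgeR adjusted p = 8.53e-05 and 0.00176). ERB1, a PeBoW subunit, had 1258 and 1000 against 679 and 459, and 1895 and 1945 against 778 and 1089 (log2 1.01 ± 0.25 and 1.06 ± 0.17, edgeR adjusted p = 0.000561 and 0.00166). ENP2 had 1953 and 1785 against 721 and 739 in the DBVPG1373 hybrid (log2 1.35 ± 0.17, edgeR adjusted p = 0.000375). The alleles of these genes did not overlap.
RLP24, a 60S factor related to a ribosomal protein, had 394 and 358 against 231 and 142 in the UWOPS05_217_3 hybrid (log2 1.05 ± 0.36, edgeR adjusted p = 0.0178). DESeq2 did not make this call, and RLP24 was not called in the DBVPG1373 hybrid (log2 0.41, edgeR adjusted p = 0.262). Its NFR is shared with the upstream region of another gene.

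**Figure D5:**
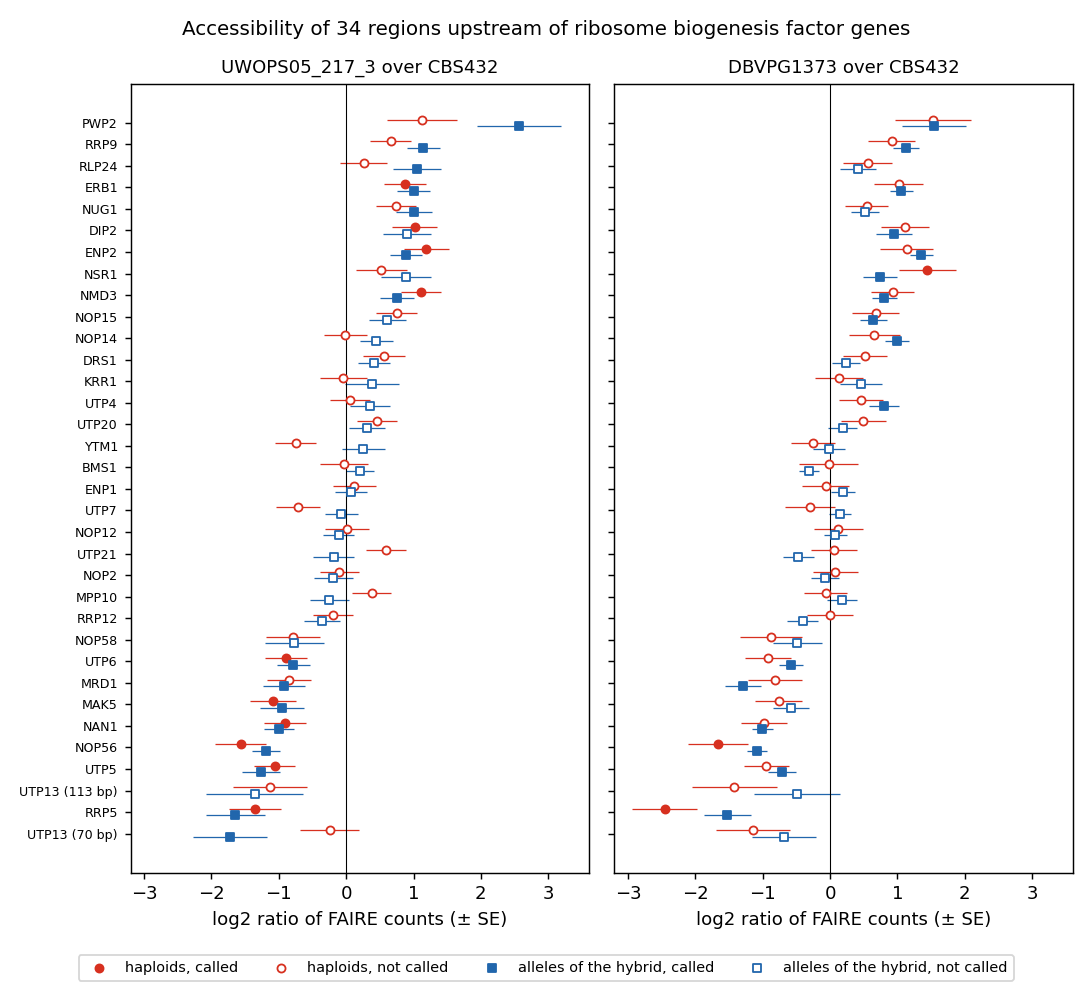
log2 ratio of FAIRE counts (x axis, ± SE) of UWOPS05_217_3 (left) or DBVPG1373 (right) over CBS432 at the 34 NFRs, named by their gene, in haploids (red circles) and between hybrid alleles (blue squares), filled where called. NFRs extend from well below to well above 0 in both panels, with NOP56 and RRP5 near the bottom and RRP9 and ERB1 near the top of each.

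No trans difference in accessibility was called for the 34 NFRs. In the UWOPS05_217_3 cross edgeR and DESeq2 each called 0, each had 2 NFRs at an unadjusted p under 0.05, and 0.0572% of all NFRs were called by edgeR. In the DBVPG1373 cross edgeR and DESeq2 called 0, with 1 and 0 NFRs at an unadjusted p under 0.05, and 0% of all NFRs were called. The standard errors of the trans difference had a median of 0.37 and 0.36 on the log2 scale, wider than the median trans difference of 0.32 found for RNA, so that a change in accessibility of that size was not detectable at this replication.

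Differences in accessibility and in RNA were then set side by side for each gene. Across the 33 genes with an NFR, the log2 differences between the haploids had a Pearson correlation of -0.13 and a Spearman correlation of -0.17, and those between the alleles of the UWOPS05_217_3 hybrid had -0.15 and -0.23. These correlations run across genes that share the same libraries and are given as a description. Of the 8 genes called for both RNA and NFR between the haploids, 5 had the same direction in both. Of the 10 called for both between the alleles, 5 did. As every haploid RNA call was lower in UWOPS05_217_3, the first count gives only how many of the 8 NFRs were called lower. Such shares were not counted over all genes. ENP2, DIP2 and ERB1 had a more accessible NFR and less RNA in UWOPS05_217_3, with RNA log2 differences of -0.60, -0.60 and -0.35. A less accessible NFR and less RNA were found for NAN1, UTP5, UTP6, MAK5 and RRP5. Their RNA differences were -0.68, -0.55, -0.75, -0.46 and -0.41. The NFRs of NAN1, UTP5 and MAK5 are shared with another gene.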

How the data were processed

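FAIRE-seq and RNA-seq were analysed as read counts that the authors deposited, 1 table per library or hybrid allele, with 2 biological replicates per group. Reads had been mapped by the authors using bwa and samtools (versions not given in the sources used here) to strain assemblies, to a CBS432 reference or, for hybrids, to both genomes together. Counts had been summed across each gene or NFR without sites called as indels. The submitters' notes name CASAVA, BWA and sacCer3. A read covering several sites may be counted repeatedly, and mapping bias between alleles was not tested. CBS432 is labelled S. cerevisiae in the organism field and was treated as S. paradoxus, as the series design states. The RNA tables of the DBVPG1373 cross were not used here. Coordinates are those of the tables, in which 4245 of 4597 genes matched to the R64 table start at the same base.

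The genes and lists were chosen with earlier results of these data known. Haploids, and each allele against its haploid, were compared by edgeR's quasi-likelihood test (edgeR 4.0.16, R 4.3.3) with TMM scaling on the 4 libraries involved. The cis test used the hybrid library as block and gave both alleles an equal library size. The trans test was the species-by-hybrid interaction, scaled by totals, with replicate numbers as block as in the study's model. Genes needed a mean count of 10, every NFR was tested, and p-values, which measure the spread between 2 replicates only, were adjusted by Benjamini-Hochberg at 0.05. On simulated counts, the RNA tests and the trans test of FAIRE let through more false calls than the threshold sets, and the trans test of FAIRE missed more changes than it found. DESeq2 1.42.0, other scalings, filters, blocks, a pseudocount of 5 in place of 0.5 and leaving out libraries were alternatives.

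Genes given per library were NOP56, NOP58, TIF6, NMD3 and, in each comparison and direction, up to 3 called genes or NFRs with the largest difference, a mean count of at least 100 and the same sign in every pairing of libraries. SFP1, HSP12, TSL1, DDR2 and the NFRs of NAN1, UTP6 and PWP2 were named after their values were seen. Summaries used Python 3.11.15 with pandas 2.3.3, numpy 2.4.6, scipy 1.17.1 and matplotlib 3.10.9.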

Additional observations from a re-analysis of the deposited data

Results flagged for a closer look

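For 25 of the 42 genes, the RNA ratio of UWOPS05_217_3 over CBS432 differed between the haploids and the alleles of the hybrid by edgeR's interaction test, all 25 being relatively lower in the UWOPS05_217_3 haploids. No group had the 4 samples that a check for a single outlying sample needs.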

How the results depend on the processing

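The directions held more firmly than the counts. Across the alternatives, 39 to 41 of the 42 genes stayed negative between the haploids, all 42 stayed negative in trans and all 42 stayed positive for the UWOPS05_217_3 allele, and the 36 values given for named genes and NFRs did not change sign, although 29 of 238 of their alternative fits were not called. The trans count of 25 genes became 40 with DESeq2, 38 with TMM scaling and 8 with no replicate block. With single libraries left out, the trans median ran from -0.43 to -0.25, in fits where the haploid or the hybrid ratio had no replicate. TMM scaling moved the median over all genes from 0.07 to 0.00 and the calls over all genes from 761 higher and 527 lower to 566 and 758. Without single libraries the count for the UWOPS05_217_3 allele ran from 5 to 40, and under total-count scaling it was 30, when the calls over all genes shifted from 571 higher and 563 lower to 396 and 873. In FAIRE, the haploid count for UWOPS05_217_3 ran from 1 to 5 without single libraries. That for DBVPG1373 was 7 with DESeq2, 12 with the replicate block and 1 to 8 without single libraries, and that between the S. cerevisiae strains was 1 with the replicate block and 0 to 1 without single libraries. The cis count in the UWOPS05_217_3 hybrid was 9 with no replicate block, when the calls over all NFRs fell from 866 to 456. Scaling by totals placed the median over all NFRs at -0.10 and -0.16 in trans. Deviations of same-numbered replicates correlated at 0.11 to 0.26 between RNA libraries of different groups and 0.00 to 0.52 between FAIRE libraries. The labels do not say what the numbers share and 2 pairs cannot settle it, so the trans count rests on the pairing taken from the study's model. The replicate block gave 35 calls for RNA and 15 for FAIRE between UWOPS05_217_3 and CBS432 haploids. The causes of these changes were not tested, except that leaving out a parent of a replicate block removes its partner as well. Cis tests without 1 hybrid library have no replicate left and were not run.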
